A study of Mus musculus with 20 samples.

Results

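The 26S proteasome is the machine that breaks down ubiquitin-tagged proteins, and 39 protein-coding genes for its numbered subunits were read across 6 groups of mouse hearts. The genes were taken by symbol, as every protein-coding gene whose symbol was Psma, Psmb, Psmc or Psmd followed by a number, which gave 8 Psma, 11 Psmb, 6 Psmc and 14 Psmd genes of 26440 genes measured. The animals were C57BL/6N mice. The groups were ventricles of MyHC-Creld1 KO and wild-type pups at postnatal day 3 (P3, 3 libraries each), atria of KO and wild-type pups at P3 (3 each), and whole hearts of KO and wild-type embryos at E13.5, counted in days of gestation (4 each). KO stands for a myocardium-specific deletion of Creld1, named for a promoter of the heart muscle myosin genes (MyHC), so cells of the heart outside the myocardium were not targeted, and the sources used here do not state which part of the gene was removed or how the wild-type animals stood for the Cre transgene. By the labels, atria and ventricles with the same number were taken from 1 pup, and the KO and wild-type animals with the same number were littermates prepared together, with E13.5 numbers 2 and 3 from 1 litter. The 20 libraries came from 14 animals under 6 litter labels, and were made from total RNA by SMART-Seq2, a full-length cDNA method suited to small amounts of tissue.

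The proteasome has a barrel-shaped 20S core, built from rings of alpha and beta subunits, that cuts proteins inside its chamber, and a 19S cap that recognises ubiquitin, unfolds the substrate and threads it into the core. Cells exposed to interferon replace the catalytic beta subunits of the core with immune forms, which changes the peptides made for antigen presentation. In heart muscle the system removes damaged and surplus sarcomere proteins, and transcription factors of the Nrf1 and Nrf2 type, which bind antioxidant response elements, are known to drive many of its genes.

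The promoters of 5 members are printed because they belong to the 3 genes with the smallest p between genotypes in atria and to 2 standard catalytic subunit genes that hold the antioxidant response core. They are RefSeq sequences of build GRCm38.p6 (mm10), 5′ to 3′ along the gene's strand, with 250 bases before the annotated start and 50 after it. Capitals mark a match to the antioxidant response core TGACNNNGC or to the CCAAT box, each searched on both strands with N for any base. Psmb4 lies at chr3:94886909-94887208 on the minus strand, Psmc2 at chr5:21785025-21785324 on the plus strand (the first of 2 promoters listed), Psma5 at chr3:108256676-108256975 on the plus strand, Psmb5 at chr14:54617946-54618245 on the minus strand and Psmb6 at chr11:70525107-70525406 on the plus strand.
Psmb4: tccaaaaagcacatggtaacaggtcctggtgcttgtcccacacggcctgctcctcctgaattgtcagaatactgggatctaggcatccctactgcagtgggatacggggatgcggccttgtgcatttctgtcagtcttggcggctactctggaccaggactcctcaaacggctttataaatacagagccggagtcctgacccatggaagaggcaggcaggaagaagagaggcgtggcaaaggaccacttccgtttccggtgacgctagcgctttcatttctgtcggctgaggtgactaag
Psmc2: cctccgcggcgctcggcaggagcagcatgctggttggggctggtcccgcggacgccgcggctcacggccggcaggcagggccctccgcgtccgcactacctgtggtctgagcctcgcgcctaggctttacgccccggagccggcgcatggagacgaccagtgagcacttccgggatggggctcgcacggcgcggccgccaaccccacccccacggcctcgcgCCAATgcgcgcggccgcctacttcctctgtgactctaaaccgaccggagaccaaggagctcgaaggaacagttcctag
Psma5: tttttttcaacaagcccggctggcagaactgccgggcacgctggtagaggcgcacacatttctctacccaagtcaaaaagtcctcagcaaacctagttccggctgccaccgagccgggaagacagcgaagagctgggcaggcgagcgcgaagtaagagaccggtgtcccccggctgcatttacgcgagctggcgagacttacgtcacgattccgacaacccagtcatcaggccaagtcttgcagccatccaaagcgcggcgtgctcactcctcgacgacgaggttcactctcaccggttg
Psmb5: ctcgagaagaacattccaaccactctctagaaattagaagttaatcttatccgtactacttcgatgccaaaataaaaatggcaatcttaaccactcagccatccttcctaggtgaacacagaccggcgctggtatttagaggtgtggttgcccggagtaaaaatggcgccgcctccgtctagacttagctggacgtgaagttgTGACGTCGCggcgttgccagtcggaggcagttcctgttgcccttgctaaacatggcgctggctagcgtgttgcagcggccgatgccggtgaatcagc
Psmb6: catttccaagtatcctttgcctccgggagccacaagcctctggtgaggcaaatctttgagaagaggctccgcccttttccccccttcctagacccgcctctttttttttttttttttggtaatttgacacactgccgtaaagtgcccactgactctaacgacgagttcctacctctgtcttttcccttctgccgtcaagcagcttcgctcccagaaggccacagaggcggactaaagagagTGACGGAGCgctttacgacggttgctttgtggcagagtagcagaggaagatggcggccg

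The antioxidant core began 47 bases before the start of Psmb5 and 9 bases before that of Psmb6, and the CCAAT box 28 bases before that of Psmc2. The Psmb4 and Psma5 windows held neither. Of the 39 members, 32 had a promoter in the table, and 5 of these (15.6%) held the core (Psmb5, Psmb6, Psmc6, Psmd9 and Psmd12), against 3781 of 27025 genes. The CCAAT box was in 13 of 32 (40.6%), against 41.1% of all genes. The interferon-stimulated response element, searched on both strands, was in 3 of 32 (Psmb3, Psmd4 and Psmd9; 9.38%), against 3.99% of all genes, and in none of the windows of the immune subunit genes Psmb8, Psmb9 and Psmb10.

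The deposited values are normalised signals, here called signal. Depth was estimated at 5138353 to 20669361 reads per library, taking the commonest positive value of each library as 1 read. Over all genes, 45.1 to 64.6% of low values per library were whole multiples of it, so the estimate is approximate. Creld1, the targeted gene, had 19.9 to 59.3 in KO ventricles against 59.7 to 130 in wild-type ventricles, 23.1 to 82.4 in KO atria against 21.6 to 146 in wild-type atria, and 4.64 to 70.9 in KO embryonic hearts against 34.0 to 92.2 in wild-type hearts. Creld1 was lower in the KO library in 3 of 3 ventricular, 2 of 3 atrial and 3 of 4 embryonic same-numbered pairs, and its difference passed the test in no tissue (adjusted p = 1 in limma). The atrial library labelled wild type, number 2, held 9242 of the ventricular light chain Myl2, against 21.7 and 40.8 in the other wild-type atria, and Xist was 74.9 in the ventricular library of the same label against 2876 in the atrial one. By Xist, these 2 libraries labelled wild-type pup 2 may not come from 1 pup. Some member counts, medians and calls of P3 are also given without them. Other P3 results, among them the folds of single genes, are given with them only. Xist, expressed in female cells, ran from 33.0 to 3003 in KO embryonic hearts (median 37.0) against 17.8 to 2670 in wild-type ones (median 2388). In atria it ran from 20.4 to 2485 in KO against 2876 to 6119 in wild type. Ventricles had medians of 2858 in KO and 2667 in wild type. By Xist, sex was not balanced between genotypes at E13.5 or in atria. Its part in the genotype differences, including that of the X-linked Psmd10, was not tested. Preparation year changed with stage: E13.5 numbers 1 to 3 were prepared in 2016 and E13.5 number 4 and all P3 libraries in 2018. In whole tissue, fewer cells of a type and less RNA per cell cannot be told apart.

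All 39 members passed the filter on low values (a signal of at least 10 in at least 3 libraries), which kept 18125 genes. The ubiquitously used subunits, 34 of the 39, were read in every library, with signals of 50.4 to 10999. For a rough comparison between genes, signal was divided by the length in kb of the annotated transcript with the longest coding sequence. Which transcript was expressed was not checked, and the order of genes depends on that choice. Per kb, Psma3, an alpha ring subunit, stood highest in wild-type E13.5 hearts at 2928 ± 254 signal per kb (SD, n = 4). It was followed by Psma6 at 1959 ± 296, Psmb1 at 1888 ± 339 and Psmb6 at 1863 ± 274, 3 genes whose libraries overlapped one another. Psma3 did not overlap with Psma6 in these libraries.

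By role, the medians per kb in wild-type E13.5 hearts were 1358 for the 7 alpha ring genes, 1002 for the 4 structural beta genes and 722 for the 3 standard catalytic beta genes. They were 537 for the 6 ATPases that unfold substrate, 396 for the 8 genes of the lid, which holds the deubiquitinating enzyme Psmd14, and 158 for the 3 non-ATPase subunits of the base (Psmd1, Psmd2 and the ubiquitin receptor Psmd4). The genes for 19S assembly chaperones Psmd5, Psmd9 and Psmd10, which are not part of the finished particle, had a median of 76.3. Of the 38 neighbouring pairs in this order, 4 did not overlap between libraries, after Psma3, Psma2, Psmd4 and Psmd2. All other neighbours in the order overlapped.

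**Figure D1:**
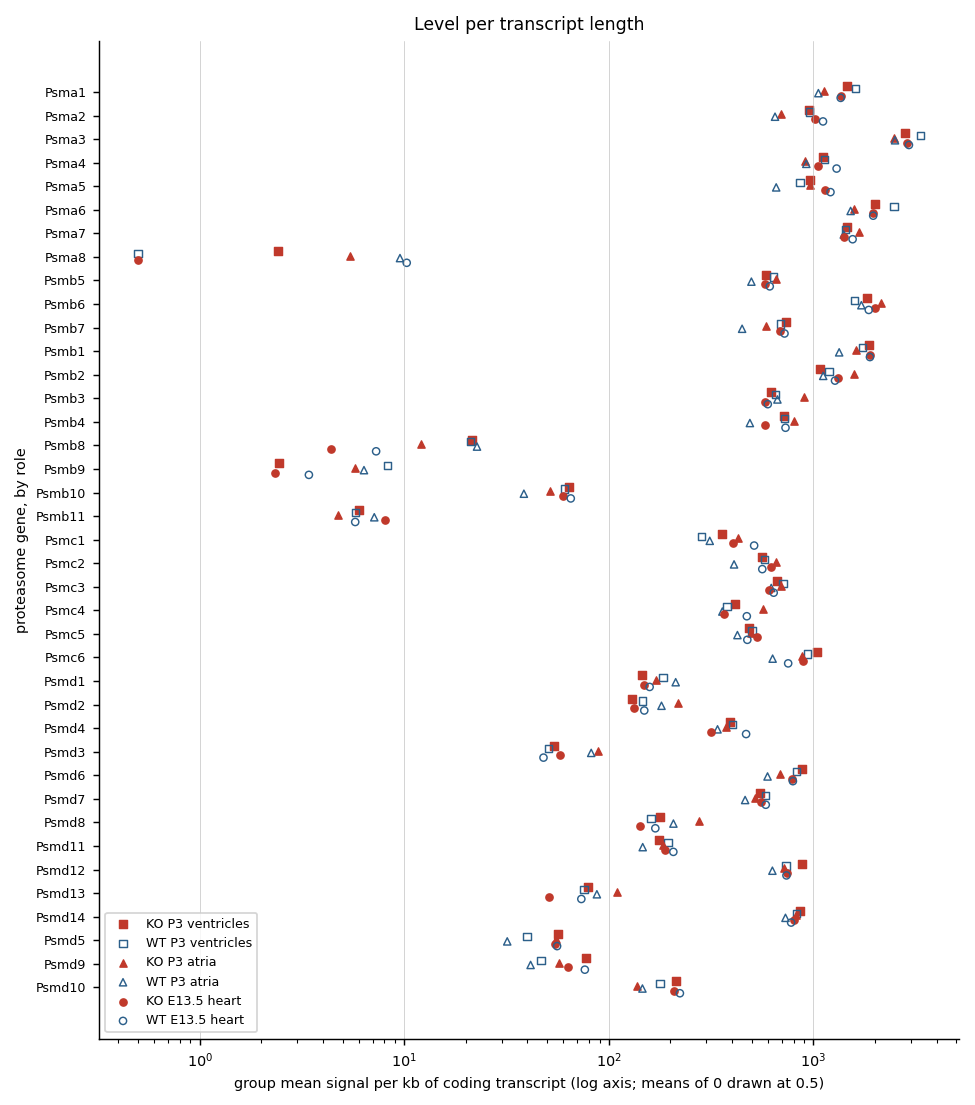
Mean signal per kb of coding transcript (log axis) for 39 proteasome genes ordered by role, with KO groups filled and wild-type groups open. Psma3 lies farthest right in wild-type E13.5 hearts at 2928, and the means of Psma8, Psmb8, Psmb9 and Psmb11 lie at 22.7 or below.

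Across the 6 groups, levels of the 34 ubiquitous members moved little. The highest group mean was 1.17 (Psmc3) to 2.16 (Psmd13) times the lowest, with a median of 1.53. Wild-type P3 atria had the lowest mean for 20 of the 34 genes, and KO P3 atria the highest for 12. Among those 12 are Psma7, Psmb2, Psmb3, Psmb6, Psmd2, Psmd3, Psmd8 and Psmd13. For these genes both atrial libraries of number 3, KO and wild type, lay above all other atria, as described further on. Spread between libraries of one group was also small, as the residual SD had a median of 0.40 on the log2 scale over 39 members, against 0.86 over all genes tested, whose levels are lower (median log2 signal 5.80, against 9.30 for members). Psmb4 varied least of the members, with a residual SD of 0.15, and Psma8 most, with 1.84.

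The immune catalytic subunits were rare next to their standard counterparts. Psmb8 had 0.907, 58.1 and 45.8 in KO ventricles against 3.68, 56.1 and 42.9 in wild-type ventricles, 6.79, 10.8 and 41.3 in KO atria against 28.6, 34.7 and 47.4 in wild-type atria, and 7.12, 18.5, 0 and 2.80 in KO embryonic hearts against 1.21, 6.88, 1.67 and 37.7 in wild-type ones. Its standard counterpart, the chymotrypsin-like subunit Psmb5, had 580, 425 and 572 in KO ventricles against 548, 537 and 631 in wild-type ventricles, 616, 460 and 686 in KO atria against 574, 244 and 523 in wild-type atria, and 590, 312, 629 and 562 in KO hearts against 613, 608, 376 and 600 in wild-type hearts. Per kb, Psmb8 made up 0 to 7.28% of the sum of Psmb8 and Psmb5 over the 20 libraries, with a median of 1.98%. Psmb8 differed widely between libraries of one group except in wild-type atria, and KO and wild-type libraries overlapped in every tissue.

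Psmb9, the immune form of the caspase-like subunit, had 0, 5.79 and 4.15 in KO ventricles against 6.73, 3.54 and 23.3 in wild-type ventricles, 3.35, 7.13 and 12.7 in KO atria against 4.23, 2.64 and 18.9 in wild-type atria, and 6.03, 0, 6.57 and 0 in KO embryonic hearts against 0, 14.4, 4.05 and 0 in wild-type hearts. Psmb6, its standard form, had 1588, 1235 and 1547 in KO ventricles against 1311, 1433 and 1046 in wild-type ventricles, 1359, 1276 and 2481 in KO atria against 1183, 876 and 2045 in wild-type atria, and 1627, 1248, 1521 and 1958 in KO hearts against 1749, 1307, 1307 and 1585 in wild-type hearts. The Psmb9 share per kb was 0 to 1.30% (median 0.196%). Exons of Psmb9 overlap those of Tap1 on the other strand, and those of Psmb8 overlap Gm20496. No source used here says that strand was used in counting, so reads of these partners cannot be told apart. Psma4, Psma5, Psmb7, Psmc3, Psmd1, Psmd3, Psmd9 and Psmd13 also overlap another annotated gene on the other strand, so their values carry the same uncertainty. Psmb5 and Psmd1 overlap a gene on their own strand (Mir686 and Gm21972), which strand would not separate. Pseudogenes were searched only by names built on a member's symbol, and 1 was found, for Psmb6. Whether it shares reads with Psmb6 was not tested.

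Psmb10, the immune form of the trypsin-like subunit, had a residual SD of 0.50 on the log2 scale, against 1.84 for Psmb8. It had 130, 42.0 and 80.2 in KO ventricles against 46.8, 98.0 and 93.2 in wild-type ventricles, 72.8, 52.8 and 77.4 in KO atria against 34.9, 50.2 and 66.0 in wild-type atria, and 79.3, 56.9, 112 and 65.3 in KO hearts against 80.2, 62.4, 120 and 78.6 in wild-type hearts. Psmb7, its standard form, had 954, 717 and 893 in KO ventricles against 757, 871 and 765 in wild-type ventricles, 592, 625 and 827 in KO atria against 447, 661 and 451 in wild-type atria, and 973, 468, 1011 and 714 in KO hearts against 820, 716, 819 and 994 in wild-type hearts. Psmb10 made up 4.93 to 11.5% of the pair per kb, and its genotypes overlapped in every tissue.

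**Figure D2:**
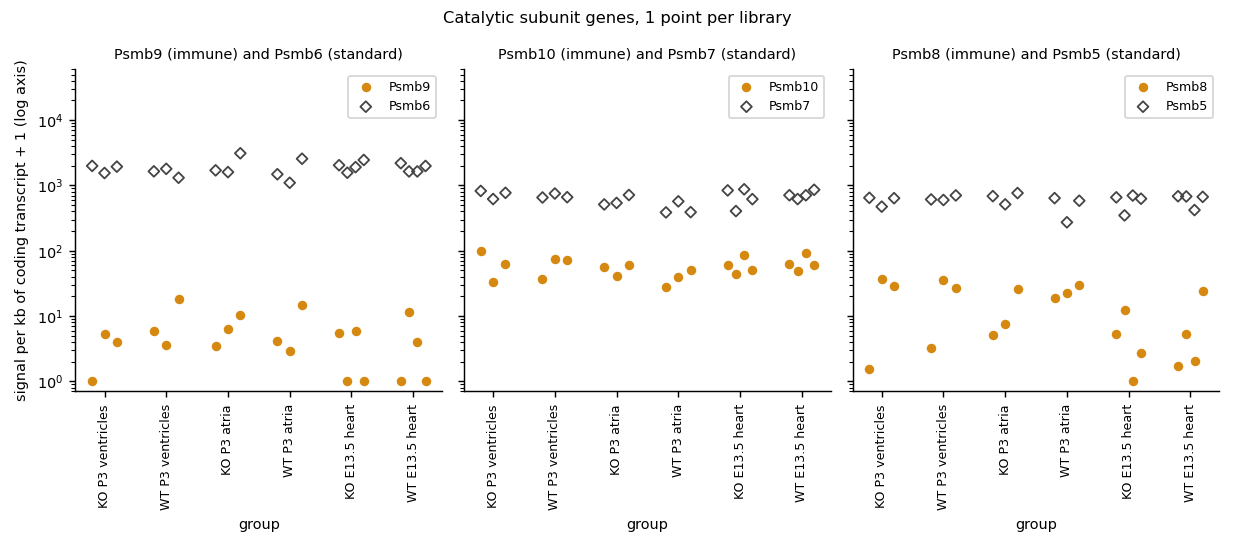
Signal per kb of coding transcript plus 1 (log axis) of each immune catalytic gene (filled) and its standard counterpart (open), 1 point per library in 6 groups. Every immune point lies below every point of its standard counterpart, and a value of 1 marks a library at 0.

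The 2 forms known from other organs were near the floor. Psma8, an alpha subunit of the testis, was at 0 in 11 of 20 libraries. It had 1.93, 10.3 and 0 in KO ventricles against 0 in all 3 wild-type ventricles, 18.5, 0 and 8.94 in KO atria against 19.9, 26.5 and 1.96 in wild-type atria, and 0 in all 4 KO embryonic hearts against 0, 0, 58.6 and 10.9 in wild-type hearts. The wild-type values at E13.5 thus rested on 2 libraries, and no fold change is given for E13.5 or for ventricles. Psmb11, the beta subunit of the thymic cortex, was read in every library at a low, even level: 29.0, 26.1 and 21.8 in KO ventricles against 24.5, 25.3 and 23.9 in wild-type ventricles, 22.5, 26.9 and 10.9 in KO atria against 36.2, 33.2 and 21.5 in wild-type atria, and 24.7, 42.4, 30.2 and 39.9 in KO hearts against 34.2, 12.1, 25.5 and 26.0 in wild-type hearts. The 10 measured thymus markers summed to 35.6 to 102 in KO ventricles against 101 to 156 in wild-type ventricles, 81.2 to 96.7 in KO atria against 56.0 to 124 in wild-type atria, and 102 to 215 in KO hearts against 89.6 to 160 in wild-type hearts. Of the T-cell markers among them, Cd3e was at most 4.19 in any library. The T-cell genes Rag1 and Ptcra stood higher: Rag1 reached 22.8 in a KO embryonic heart, and Ptcra was read in every library. Ptcra ran from 7.43 in wild-type ventricles to 32.7 in wild-type embryonic hearts. The part of thymus tissue in the Psmb11 signal was not tested.

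KO and wild-type hearts were compared with limma on log2(signal + 1), with p-values adjusted over all 18125 genes. No member passed an adjusted p of 0.05 in any tissue. In P3 atria 34 of 39 members had a positive fold change, with a median of 0.30 log2, while the median over all genes was 0.00 and 49.8% of them were positive. The share of genes called in atria was 0.0221% higher and 0.00552% lower (4 and 1 genes). In ventricles 21 members were positive and 18 negative, with a median of 0.01, and 0% of genes were called in either direction. At E13.5, 11 members were positive and 28 negative, with a median of -0.08, and again 0% of genes were called. Without KO number 2, 21 were positive at E13.5, with a median of 0.01. Members share libraries and vary together, so these counts are no number of independent observations.

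**Figure D3:**
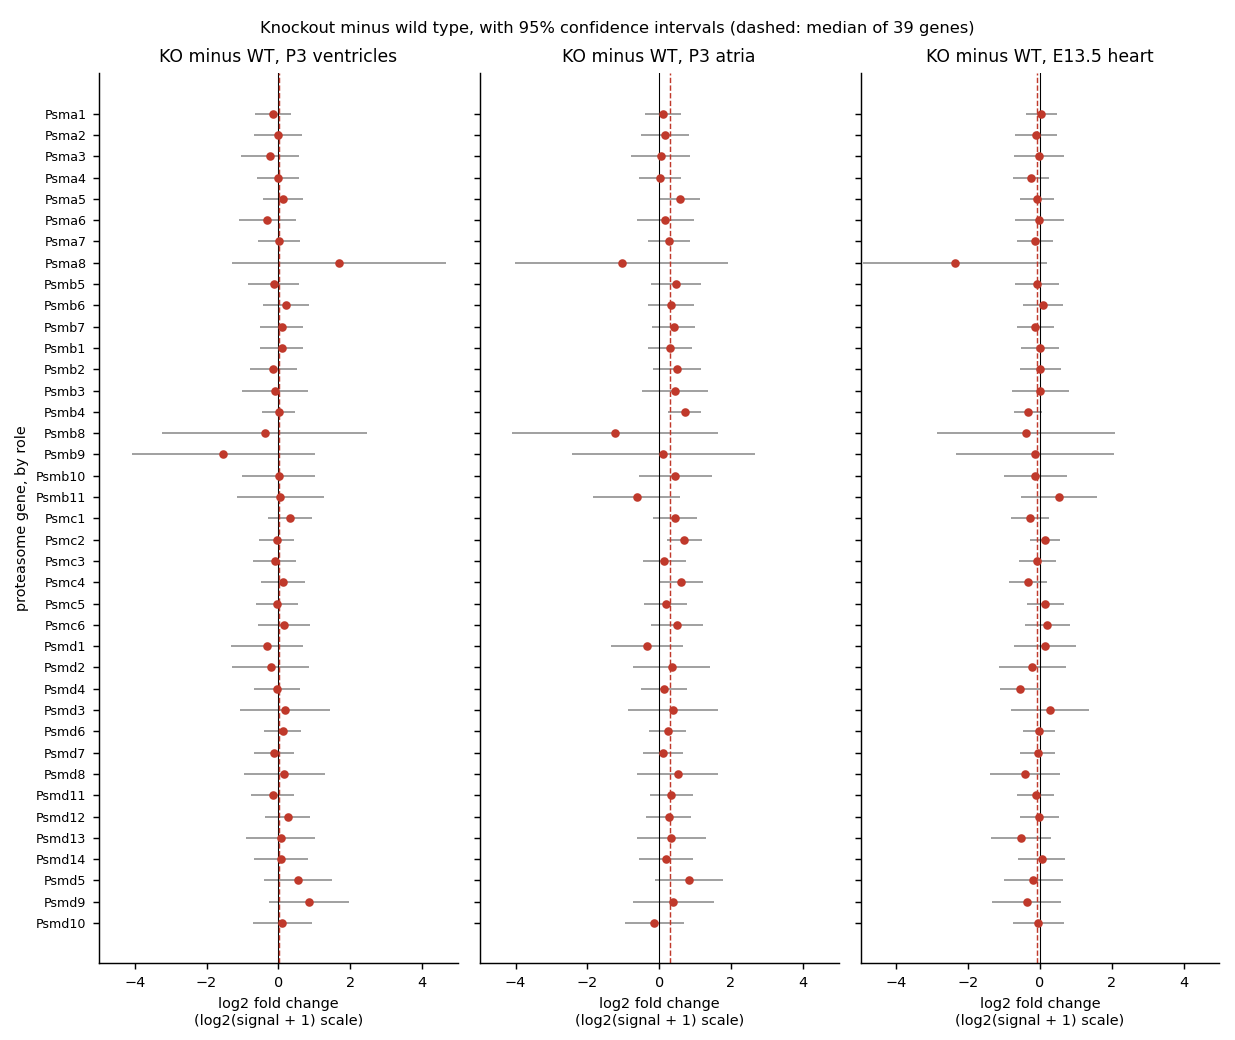
Log2 fold change, KO minus wild type, for 39 proteasome genes in P3 ventricles, P3 atria and E13.5 hearts, as points with 95% confidence intervals, and the median as a dashed line. In atria 34 points lie right of 0 around a median of 0.30, and in the other panels the median lies at 0.01 and -0.08.

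In atria the sign of the fold change was counted by role. All 7 alpha ring genes, 3 of 3 standard catalytic genes, 4 of 4 structural beta genes, 6 of 6 ATPases and 8 of 8 lid genes were positive, with medians of 0.16, 0.40, 0.47, 0.46 and 0.30 log2. Without the atrial pair of number 3, described further on, 4 of 7 alpha ring genes (median 0.00) and 7 of 8 lid genes (0.17) were positive, and all of the standard catalytic, structural beta and ATPase genes (0.37, 0.49 and 0.35). The base subunit Psmd1, the chaperone Psmd10, the immune subunit Psmb8 and the restricted forms Psma8 and Psmb11 were the 5 negative ones. By same-numbered pair, the median of the members was 0.16, 0.13 and 0.39 log2 in pairs 1, 2 and 3, with 25, 28 and 33 of 39 members positive. Of the 39, 19 were positive in 3 of 3 pairs, 12 in 2 pairs, 5 in 1 pair and 3 in 0 pairs.

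Psmb4, a structural beta subunit, had 1006, 922 and 910 in KO atria against 581, 630 and 525 in wild-type atria. Every KO library was above every wild-type library. The fold change was 0.71 log2 (SE 0.22; 95% interval 0.26 to 1.17), with an adjusted p of 0.572 in limma. Psmc2, an ATPase of the base, had 1363, 1169 and 998 in KO atria against 705, 904 and 581 in wild-type atria, again with no overlap, a fold change of 0.70 (SE 0.23) and an adjusted p of 0.676.

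Psma5, of the alpha ring, had 1367, 1186 and 1039 in KO atria against 925, 902 and 616 in wild-type atria, and its groups did not overlap. Its fold change was 0.57 (SE 0.27; adjusted p = 0.926 in limma). Psmc4, another ATPase, had 770, 591 and 1078 in KO atria against 500, 479 and 571 in wild-type atria, with a fold change of 0.61 (SE 0.29; adjusted p = 0.934). These 4 were the only members at an unadjusted p under 0.05 in atria, the only ones whose KO libraries were all higher, and positive in each of the 3 pairs. With the pairs as a block, 7 members had an unadjusted p under 0.05 in atria, these 4 with Psmb2, Psmc6 and Psmd5, and 0 were called. The share of all genes with non-overlapping groups was 3.92% higher and 3.99% lower, against 4 and 1 of 39 members, Psmd1 being the lower one.

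Lists of cell markers were read in the same atrial comparison. Positive folds were found for 8 of 12 cardiomyocyte, 6 of 9 atrial chamber, 7 of 10 endothelial and 8 of 15 white blood cell markers. The medians of these lists were 0.16, 0.15, 0.15 and 0.02 log2, with 0 called. Erythroid, proliferation, fibroblast and ventricular markers leaned further to one side. Erythroid markers summed to 31103 to 133153 in KO atria against 15596 to 18834 in wild-type atria, with 9 of 10 tested positive and 0 called. The 12 proliferation markers were all positive, with 1 called higher, and summed to 7467 to 15508 in KO atria against 5358 to 9925 in wild-type atria. Fibroblast markers were positive in 3 of 11, with 1 called lower, and ventricular markers in 0 of 7 (sums of 4933 to 6657 in KO atria against 3815 to 27625 in wild-type atria, the highest in wild-type number 2). Their part in the proteasome difference was not tested. Without the libraries of wild-type pup 2, 30 of 39 members were positive, with a median of 0.30.

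At P3 the same 4 genes were near equal in ventricles. Psmb4 had 851, 880 and 827 in KO ventricles against 814, 767 and 984 in wild-type ventricles, and Psmc2 had 1111, 959 and 922 in KO ventricles against 1138, 919 and 1035 in wild-type ventricles. Both pairs of groups overlapped. The members with the smallest p there were Psmd9 and Psmd5, chaperones of 19S assembly, with Psmb9 and Psma8. Psmd9 had 241, 127 and 235 in KO ventricles against 187, 50.4 and 125 in wild-type ventricles (0.86 log2, SE 0.54, adjusted p = 1 in limma). Psmd5 had 294, 215 and 233 in KO ventricles against 205, 208 and 111 in wild-type ventricles, with no overlap (0.54, SE 0.46, adjusted p = 1). Psmb9, at -1.54 (SE 1.23, adjusted p = 1), overlapped and lay near the floor. Its estimated reads were 0, 9.53 and 4.77 in KO ventricles against 7.15, 2.38 and 10.7 in wild-type ventricles. Groups did not overlap for 2 members that were higher (Psmd5 and Psmc1) and 1 that was lower (Psma6), against 4.97% and 5.56% of all genes.

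At E13.5 the member with the smallest p was Psmd4, the ubiquitin receptor of the base. It had 298, 414, 485 and 417 in KO hearts against 459, 556, 785 and 592 in wild-type hearts, lower in all 4 same-numbered pairs, although the groups overlapped (-0.56 log2, SE 0.27, adjusted p = 1 in limma). Psmb4 had 616, 695, 792 and 629 in KO hearts against 918, 881, 714 and 941 in wild-type hearts (-0.34, SE 0.19, adjusted p = 1). Psmc4 had 673, 553, 394 and 482 in KO hearts against 963, 519, 493 and 745 in wild-type hearts (-0.34, SE 0.25, adjusted p = 1). No member's groups were apart at E13.5, where 1.3% of all genes had every KO library higher and 1.25% every KO library lower, and 747 genes had an unadjusted p under 0.05.

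The genotype differences were then set against each other. In atria relative to E13.5, the difference of Psmb4 was 1.05 log2 greater (SE 0.29), that of Psmc4 0.96 (SE 0.39) and that of Psma5 0.65 (SE 0.35), with adjusted p-values of 0.724, 0.952 and 0.999 in limma, and 35 of 39 members were positive. Within pups, the ventricular difference minus the atrial one was -0.75 for Psmc2 (SE 0.41), -0.71 for Psmb4 (SE 0.40) and -1.66 for Psmb9 (SE 1.22), each with an adjusted p of 1. Psmb9 lay near the floor in these libraries. The ventricular difference minus the atrial one was negative for 33 of 39 members, with a median of -0.25. Between ventricles and E13.5 the smallest p-values belonged to Psma8, Psmd9 (1.23, SE 0.71) and Psmc1 (0.61, SE 0.39), again with an adjusted p of 1. No test of these differences passed for any member, so the genotype difference was not shown to differ between tissues.

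Stage and chamber were compared within each genotype. In wild-type animals 1 member fell in P3 atria against E13.5 hearts. The alpha ring gene Psma5 had 925, 902 and 616 in P3 atria against 1937, 1355, 1189 and 1521 in E13.5 hearts, with no overlap (-0.88 log2, SE 0.25, adjusted p = 0.0429 in limma). Over all genes 3.11% were called higher and 2.39% lower. The call was lost under many alternatives, with an adjusted p of 0.0965 without the third atrial pair, 0.0621 without wild-type pup 2 and 0.542 within the libraries of 2018. Of the other members 0 were called, 6 members in all had a negative fold at an unadjusted p under 0.05, and 30 of 39 were negative, with a median of -0.34 against 0.09 over all genes. All P3 atria were below all E13.5 hearts for 6 members (Psma2, Psma5, Psmb4, Psmb7, Psmd6 and Psmd9) and above for 0, where 6.74% and 8.07% of all genes were. With quantile normalization the median was -0.23, against -0.05 over all genes. Markers of other cells moved with stage in these atria: 9 of 11 fibroblast and 7 of 9 atrial chamber markers were called higher, and 5 of 10 erythroid, 5 of 12 proliferation and 5 of 7 ventricular chamber markers lower. Fibroblast markers summed to 84240 to 89845 in wild-type P3 atria against 22473 to 27616 in wild-type E13.5 hearts, and their part in the Psma5 difference was not tested. In KO animals 20 of 39 members were positive in P3 atria against E13.5 hearts, with a median of 0.04, and 0 were called, against 1.95% of all genes higher and 0.855% lower. Groups were apart there for Psmb4, higher, and for Psma4 and Psmd10, lower, against 8.25% and 6.27% of all genes.

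No member was called in wild-type ventricles against E13.5 hearts, where 3.35% of genes were called higher and 1.74% lower, and the median member was at -0.02. There 6 of 11 fibroblast markers were called higher and 5 of 10 erythroid, 6 of 9 atrial chamber and 2 of 12 proliferation markers lower, and their part was not tested. The ATPase Psmc1 came closest, with 405, 472 and 482 in wild-type P3 ventricles against 1043, 483, 941 and 797 in wild-type E13.5 hearts (-0.79, SE 0.28, adjusted p = 0.109 in limma). Every ventricular value was below every embryonic one, as for 8.41% of all genes, and no member was apart in the other direction (10.3%). In KO animals no member was called in ventricles against E13.5 (1.79% of genes higher and 0.954% lower), and the median was 0.05. There Psmb4 and Psmd13 were higher without overlap and no member was lower, against 8.94% and 7.84% of all genes. Within pups, ventricles minus atria gave 0 called members in either genotype, with 20 of 39 positive and a median of 0.05 in KO pups and 29 of 39 positive and a median of 0.29 in wild-type pups. Without wild-type pup 2, 29 were positive with a median of 0.35. With quantile normalization the wild-type median was 0.14, and scaled to the total it was -0.31, where the median of all genes was -0.61. All genes called there came to 0.0772% higher and 0.121% lower in KO pups, and 0% higher and 0.0883% lower in wild-type pups. Ventricles and atria did not overlap for 3 members higher and 2 lower in KO pups (8.08% and 8.79% of all genes), and for 7 higher and 1 lower in wild-type pups (7.8% and 8.2%).

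**Figure D4:**
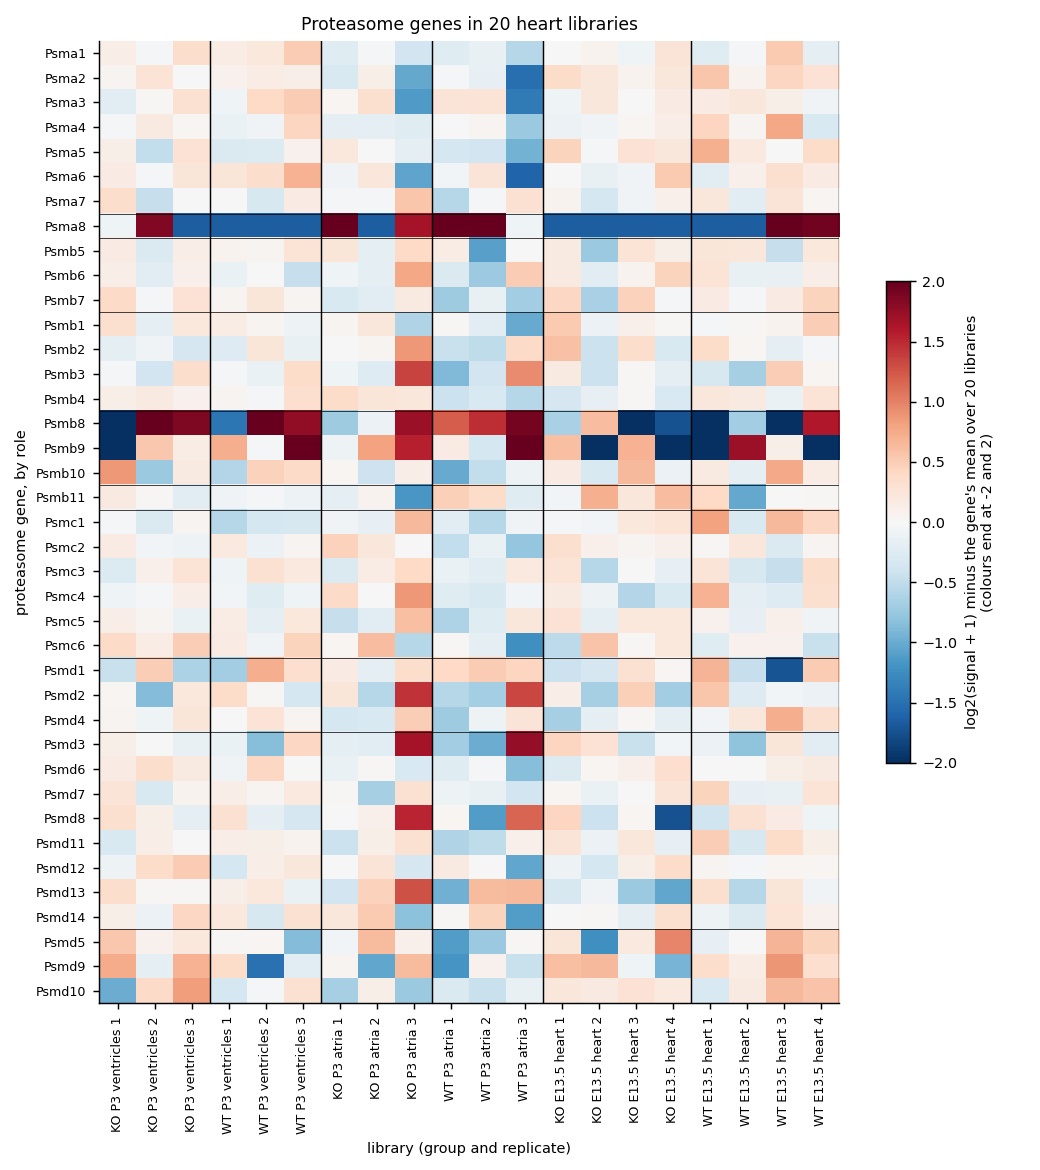
Log2(signal + 1) of 39 proteasome genes (rows, by role) in 20 libraries (columns), each as the deviation from the gene's own mean, with the colour scale ending at -2 and 2. The KO and wild-type atrial libraries of number 3 share blue rows such as Psma3 and Psma6 and red rows such as Psmd2 and Psmd3, while most other columns are pale.

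The 2 atrial libraries of number 3, KO and wild type, stood apart from the other 4 in the same way. Both lay below all 4 others for 11 members and above them for 13, while over all genes these shares were 19.2% and 26.1%, and 5.89 to 9.53% in the other atrial pairs. Psma3 had 3518 and 2902 in KO and wild-type number 3, against 7894 to 9648 in the other 4 atrial libraries. Psmd3, a lid subunit, had 371 and 398, against 58.6 to 102. Psmd2, the large base subunit, had 1144 and 1062, against 262 to 500.

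Members with GC-rich transcripts had the higher offsets. Across the 39 members, Spearman's rho and Pearson's r between transcript GC content and the offset of pair 3 from the other pairs were both 0.79, and over 14060 genes rho was 0.59. Genes share these libraries and are not independent, so no p is given. Psmc6 (37.0% GC) was at -1.03 log2 and Psma3 (40.8%) at -1.49, while Psmd3 (58.3%) was at 2.23. The 19 members under the members' median of 49.7% GC had a median offset of -0.43, and the 20 at or above it 0.77. Pairs 1 and 2 of atria had rho values of -0.63 and -0.68, which the same 6 libraries force in part, and all ventricular and embryonic pairs lay between -0.22 and 0.34. The third ventricular pair, from the same pups, had 0.08.

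**Figure D5:**
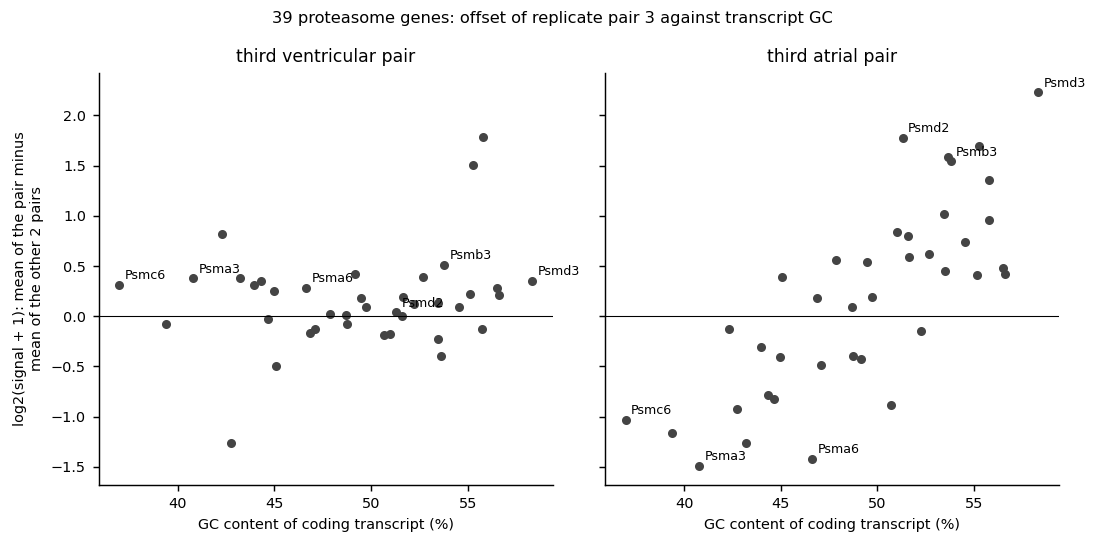
Offset of replicate pair 3 from the other pairs on the log2(signal + 1) scale against GC content of the coding transcript in percent, 1 point for each of 39 proteasome genes, for ventricles and for atria. Atrial points climb from -1.03 for Psmc6 to 2.23 for Psmd3, and ventricular points show no such slope.

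Without the third atrial pair, the atrial KO minus wild-type median was 0.18 log2 with 30 of 38 members positive, Psmb9 no longer passing the filter. Psmb4 was then at 0.67 (SE 0.22), Psmc2 at 0.66 (SE 0.22), Psma5 at 0.48 (SE 0.27) and Psmc4 at 0.46 (SE 0.31), with limma adjusted p-values of 0.411, 0.434, 0.721 and 0.801. The cause of the offset was not tested.

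The other genes of the pathway came from 7 lists. In KO against wild-type animals 0 of their genes were called in any tissue. In atria the positive counts were 5 of 6 assembly chaperones of the core (median 0.09), 6 of 9 other proteasome-associated proteins (0.28), 10 of 17 ubiquitin and shuttling genes (0.05), 10 of 15 muscle ubiquitin ligases (0.13), 3 of 10 regulators such as Nfe2l1 and Nfe2l2, which encode Nrf1 and Nrf2 (-0.27), 0 of 5 activators and inhibitor (-0.14) and 8 of 19 antigen presentation and interferon genes (-0.13). The smallest p among them was that of Fbxo32, the muscle ligase atrogin-1, with 168 ± 23.9 in KO atria against 447 ± 95.9 in wild-type atria (SD, n = 3 each; -1.39 log2, SE 0.38, adjusted p = 0.443 in limma). It was lower in KO, while most subunit genes had positive folds.

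With stage, a few antigen presentation and interferon genes rose in wild-type hearts, and the immune subunits were not called. In ventricles against E13.5, 19 of 19 were positive with a median of 2.08, of which 2 rose (3.35% of all genes did), the class I gene H2-D1 and its activator Nlrc5. In atria 18 of 19 were positive with a median of 2.30, and 4 rose (3.11% of all genes did): H2-D1, the peptide-loading factor Tapbp, Isg15 and Irf7. H2-D1 averaged 515 ± 421 in wild-type P3 atria and 70.7 ± 37.0 in wild-type E13.5 hearts (SD, n = 3 and 4; 2.75 log2, SE 0.56, adjusted p = 0.00510 in limma). Psme1, a subunit of the PA28 activator that caps the core in place of 19S, fell in atria of both genotypes, by 1.23 log2 in KO atria (472 ± 65.5 in KO P3 atria against 1103 ± 93.8 in KO E13.5 hearts, adjusted p = 0.0165) and by 0.95 log2 in wild-type atria (562 ± 258 in P3 atria against 1010 ± 155 in E13.5 hearts, adjusted p = 0.0471). Psmg4, a chaperone of core assembly, fell by 1.47 log2 in wild-type atria, with 84.7 ± 36.1 in P3 atria against 221 ± 10.8 in E13.5 hearts (adjusted p = 0.0218). Over all genes, 2.39% were called lower in wild-type P3 atria against E13.5 hearts, and 0.855% in KO P3 atria. The calls of these pathway genes are given for the main fit only. Psma5, called in the same wild-type atrial comparison, lost its call under many alternatives. Whether the pathway calls hold under those alternatives is not given here.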

How the data were processed

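The authors deposited a single table of normalised signal for 26440 genes and 20 libraries. bcl2fastq 2.2, STAR 2.5.1, DESeq2 and mm10 are named in the submitters' processing notes, and how the deposited signal was scaled is not given in the sources used here. Each gene's log2(signal + 1) was fitted with limma 3.58.1 in R 4.3.3, with a variance trend and 1 mean for each of 6 groups. The fit kept 18125 genes, those reaching a signal of 10 in 3 or more libraries, and tests were two-sided. Fold changes on the log2(signal + 1) scale understate changes of low genes. No column of per-sample values was left unused. Chambers of one pup were compared through within-pup differences. Tests were called at a Benjamini-Hochberg adjusted p under 0.05 over all genes kept, and the functions were tested on simulated data. The members, role groups and lists were chosen with earlier results of these data known. Every member was accounted for, and values in every library were given for the catalytic and restricted forms. Values in the libraries compared were given for the 4 members with the smallest p in each genotype comparison and for called members. For some of the 3 members with the smallest p in each comparison of genotype differences, library values were given only in part. By the labels, KO and wild-type animals of one number are littermates prepared on one day, so numbers pair them. Residuals of same-numbered libraries had correlations of 0.21 to 0.64 in atria, 0.02 to 0.07 in ventricles and -0.02 to 0.02 at E13.5. Those of KO and wild-type libraries with different numbers were -0.41 to 0.23, -0.06 to 0.03 and -0.03 to 0.02. The ranges overlapped in each tissue. Transcript length and GC content came from the GENCODE M21 transcript with the longest coding sequence; all 39 members matched by gene ID without version, 33 with it.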

Additional observations from a re-analysis of the deposited data

Results flagged for a closer look

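In 77 sets of 4 E13.5 libraries of one member and genotype, 3 held a library far from the other 3, where chance gives about 1 in 20. Psmb5 was lowest in wild-type E13.5 heart number 3, at 376 against 600 to 613 in the other wild-type hearts. Psmb1 was highest in wild-type E13.5 heart number 4, at 4203 against 2905 to 3123. Psmb8 was highest in wild-type E13.5 heart number 4, at 37.7 against 1.21 to 6.88.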

How the results depend on the processing

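The genotype comparisons gave 0 called members under every alternative run. Blocking by same-numbered pair (replicate block) changed no call; the smallest limma adjusted p among members was then 0.199 for Psmc2 and 0.231 for Psmb4, both in atria. For wild-type P3 atria against E13.5, the count of members called lower was 1, but 0 without a filter on low values, with quantile normalization, without the variance trend, without wild-type pup 2, with the libraries of the groups compared alone, with libraries of 2018 alone, and without the third atrial pair (chosen after seeing the data), and 2 (Psma2 and Psma5) when scaled to the total. It was 0 to 2 when each library was left out. For wild-type P3 ventricles against E13.5 it was 0, but 4 when scaled to the total (Psma2, Psma5, Psmb1 and Psmc1), 1 (Psmc1) without the third atrial pair, and 0 to 1 when each library was left out. Scaling to the total moved the median of all genes between wild-type ventricles and E13.5 hearts to -0.53 log2. Leaving out each library gave an atrial genotype median of 0.18 to 0.38 log2 with 26 to 34 members positive, 26 being the count without KO or wild-type atrial number 3. A filter at 50 left 35 members tested. Psma8, Psmb8 and Psmb9 were at 0 in 11, 1 and 5 libraries, so depth limits them most. The causes of these changes were not tested.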
